A study of Mus musculus with 32 samples.

Results

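The comparison described here asked what interferon gamma (IFN) did to mouse lung endothelial cells (ECs) that had been silenced for Dnmt1 and were already exposed to tumor necrosis factor alpha (TNF). It set 4 RNA-seq libraries of the group si-dnmt + TNF + IFN against 4 libraries of the group si-dnmt + TNF, which are 8 of the 32 libraries of the series, and the libraries were chosen by their group labels alone. All 8 came from Veravec, a cultured line of lung ECs, and all 8 had received BLOCK-iT siRNA against Dnmt1, the enzyme that copies DNA methylation marks after replication, in a repeated transfection with RNAiMAX. The protocol then gave TNF at 10 ng/mL or IFN at 1000 U/mL for 16 h, and it does not state the doses of the combination separately, so the same doses are assumed. The labels of the 4 libraries without IFN spell the treatment si-dnmtl + TNF in the treatment field, and their titles are read as si-dnmt + TNF. As a model, the cells are a line in culture, without other cell types added, and Dnmt1 was lowered by siRNA and not deleted. Both groups carried the siRNA and TNF, so the comparison itself holds only the addition of IFN. A pair of further comparisons of the same form, which share no library with it, were used to see where it differed: the same addition of IFN to TNF in cells given control siRNA (si-control), and IFN given without TNF to si-dnmt cells, each also 4 libraries against 4.

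IFN signals through a receptor made of Ifngr1 and Ifngr2 chains, with the associated kinases Jak1 and Jak2. This signaling acts at the gamma-activated sequence (GAS) and raises transcription factors such as IRF1, which in turn binds the interferon-stimulated response element (ISRE), and the coactivators CIITA and NLRC5 drive MHC class II and MHC class I genes. In ECs, TNF acts through NF-kB to raise adhesion molecules and chemokines, and the combination of both cytokines is known to bring out CXCR3 ligands, antigen presentation and checkpoint ligands on the vessel wall.

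Total counts ran from 17952470 to 20427099 per library in si-dnmt + TNF and from 17362546 to 20703292 in si-dnmt + TNF + IFN, and 15254 of the 54532 gene identifiers in the tables had enough counts to be tested. Levels are given below as CPM (counts scaled by the library total and TMM factors), in the order of replicates 1 to 4, or as mean ± SD (n = 4), and changes are log2 fold changes ± SE from edgeR's quasi-likelihood test with its Benjamini-Hochberg adjusted p over all genes tested. A gene was called when that p was under 0.05, and "rose" and "fell" are used only of called genes. The replicates of both groups fell into sets, replicates 1 and 2 standing together and apart from replicates 3 and 4, and many genes below were higher in replicates 1 and 2 with and without IFN. The series text calls the libraries biological replicates and says no more, so the p-values measure the spread between these libraries. A p-value from replicates 1 and 2 alone, or from replicates 3 and 4 alone, measures only the smaller spread within that set. As these are bulk samples, fewer cells making a transcript and less transcript per cell cannot be told apart.

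The targeted gene was low in all 8 libraries. Dnmt1 stood at 16.0, 15.0, 6.97 and 9.20 CPM with TNF and at 17.3, 13.1, 5.84 and 5.78 CPM with TNF + IFN, against means of 172 ± 18.1 and 177 ± 35.3 CPM in the matching si-control groups. The groups overlapped and its change with IFN did not pass the test (-0.17 ± 0.35, adjusted p = 0.809), with a sign that turned to 0.02, 0.03 and 0.01 without si-dnmt + TNF + IFN replicate 3, the same group's replicate 4 and si-dnmt + TNF replicate 1, respectively. In replicates 3 and 4 alone it was called lower (-0.47 ± 0.13, adjusted p = 0.0109 by edgeR). The cells carried the endothelial markers they were labelled for: the summed level of the 12 endothelial markers was 4081 to 5756 CPM with TNF and 3896 to 5793 CPM with TNF + IFN. The defining leukocyte markers Ptprc, Cd3e and Itgam reached at most 2 counts in any of the 8 libraries, and none of the leukocyte, fibroblast, pericyte and smooth muscle or epithelial markers that could be tested was called by edgeR (1 leukocyte marker was lower with the replicate number as a block). The summed leukocyte list, most of it Cd68, was 79.1 to 145 CPM with TNF and 67.7 to 125 CPM with TNF + IFN. Some other markers were present in the 8 libraries. Lyz2 stood at 1.21 to 24.2 CPM, the fibroblast marker Dcn at 4.27 to 30.4 and the smooth muscle marker Acta2 at 58.0 to 140. The endothelial marker Cldn5 was low, at 0.12 to 3.85 CPM.

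Adding IFN to TNF changed 2664 genes, 17.5% of those tested. Of these, 1659 genes (10.9%) rose and 1005 (6.59%) fell. The rises were larger than the falls: the median called rise was 0.79 and the median called fall -0.58 on the log2 scale, and 266 genes rose at least 4-fold where 61 fell as far. The called genes that rose held 15.0% of all CPM with TNF and 28.7% with TNF + IFN. The libraries of the groups did not overlap for 2372 of the called genes (89.0%), against 22.9% of all genes tested. With the replicate number as a block, 4532 genes were called (2446 higher and 2086 lower), and all 2664 stayed among them with the same direction. Scaling by library totals alone, which moved the median log2 fold change of all genes from -0.01 to -0.18, left 3956 calls of which 1158 were higher and 2798 lower, or 29.3% higher against 62.3% with TMM scaling, so statements on the balance of rises and falls are relative to the TMM scale.

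**Figure D1:**
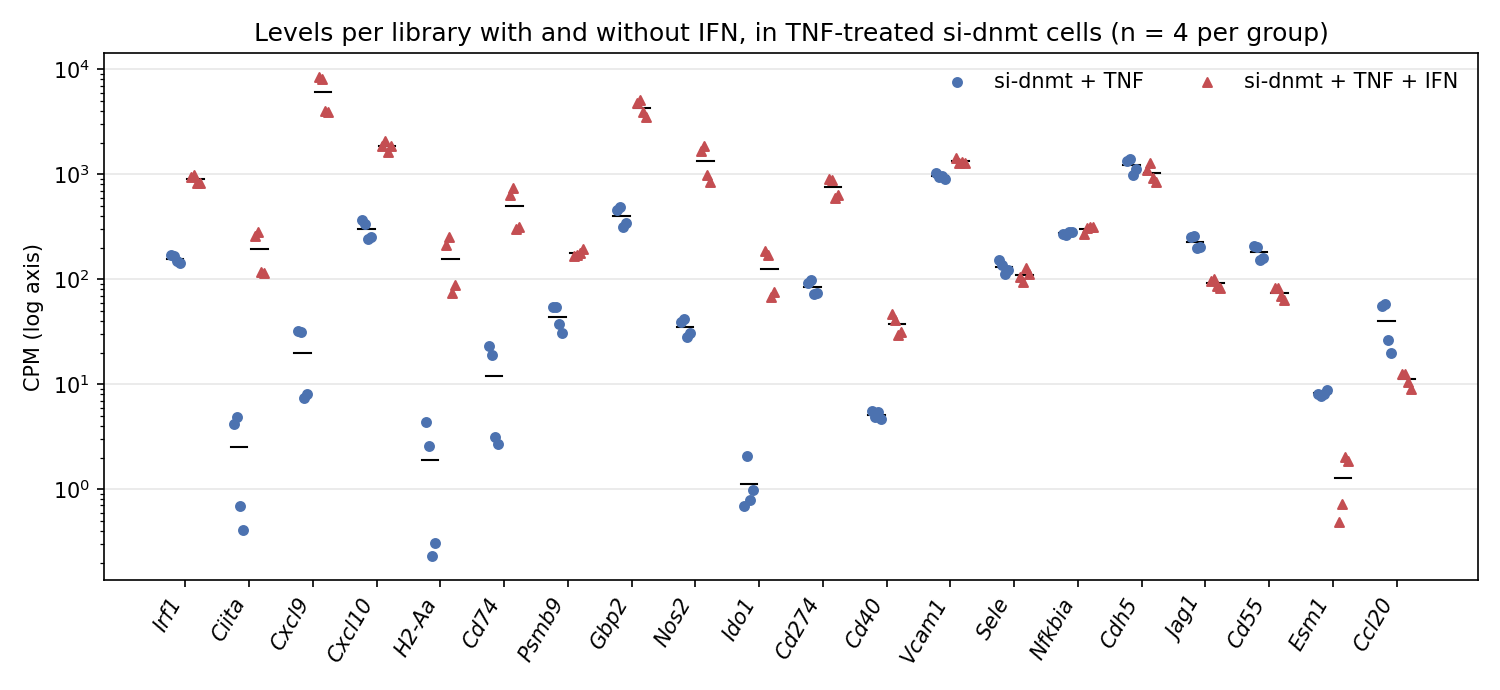
CPM on a log axis of 20 genes in the 4 libraries of si-dnmt + TNF (circles) and the 4 of si-dnmt + TNF + IFN (triangles). Cxcl9 moved from 7.43 to 32.2 CPM up to 3888 to 8457 CPM, while Nfkbia and Sele overlapped between the groups and Jag1, Cd55, Esm1 and Ccl20 were lower in every library with IFN.

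Genes of the signaling chain mostly rose, but the ligand-binding receptor chain fell. Of 12 genes on the receptor and JAK-STAT list, 8 rose and 1 fell (66.7% and 8.33%, against 10.9% and 6.59% of all genes tested), with a median of 0.70. Ifngr1 was the gene that fell, from 105, 99.9, 87.9 and 92.7 CPM to 66.1, 65.6, 64.1 and 59.7 CPM (-0.59 ± 0.11, adjusted p = 2.28e-04). Every library with IFN lay below every library without it. Ifngr2 (-0.19 ± 0.15), Jak1 (0.20 ± 0.13) and Tyk2 (0.16 ± 0.11) did not pass the test. The kinase gene Jak2 rose from 127 ± 10.5 to 301 ± 34.3 CPM (1.25 ± 0.11, adjusted p = 3.38e-09). Feedback inhibitors were among the rises: Socs1 rose from 7.43 ± 0.80 to 64.8 ± 12.5 CPM (3.12 ± 0.26, adjusted p = 5.24e-10) and Socs3 from 11.96 ± 5.04 to 38.2 ± 7.81 CPM (1.67 ± 0.46).

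Transcription factors downstream of the receptor rose further. Among 10 tested IRFs and partners, 7 rose and none fell (median 1.59). Irf1, an early target of IFN signaling, stood at 171, 167, 149 and 142 CPM with TNF and at 950, 993, 829 and 824 CPM with TNF + IFN, 5.72-fold between the means (2.52 ± 0.15, adjusted p = 6.54e-13). All libraries with IFN were far above all without it. Ciita, the coactivator of MHC class II, stood at 4.17, 4.83, 0.69 and 0.41 CPM and rose to 259, 283, 118 and 116 CPM (6.25 ± 0.62, adjusted p = 1.28e-08). The set of replicates 1 and 2 was higher than replicates 3 and 4 in both groups. Irf8 rose from 20.8 ± 10.9 to 206 ± 77.3 CPM (3.31 ± 0.41) and Nlrc5, the coactivator of MHC class I, from 114 ± 25.3 to 409 ± 69.8 CPM (1.85 ± 0.24). Batf2, a leucine-zipper factor that partners with IRF proteins, rose from 7.83 ± 2.35 to 137 ± 22.04 CPM (4.13 ± 0.24). Irf3, Irf7 and Irf9 did not pass the test (0.07 ± 0.11, 0.43 ± 0.29 and 0.14 ± 0.09).

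Stretches upstream of the start sites of some genes that rose, and of some that did not, held the sequences these factors recognize. Promoter windows from 250 bases before to 50 bases after each RefSeq start were available for 10527 of the tested genes, with 13451 windows on build GRCm38.p6. The windows were searched on both strands for TTCNNNGAA (GAS core) and GAAANNGAA (ISRE core). The following 8 show the arrangements found among genes named in this report, each running in the direction of transcription from shortly before the first match to the base before the start site, with the matched core in capitals. They lie for Irf1 at chr11:53769884-53770013 (plus strand), Socs1 at chr16:10785537-10785659 (minus strand), Igtp at chr11:58199471-58199555 (plus strand), Tgtp1 at chr11:48992247-48992374 (minus strand), Gbp2 at chr3:142620565-142620662 (plus strand), Cxcl9 at chr5:92328080-92328294 (minus strand), Cd274 at chr19:29367322-29367437 (plus strand) and Tma16 at chr8:66486531-66486750 (minus strand).
Irf1: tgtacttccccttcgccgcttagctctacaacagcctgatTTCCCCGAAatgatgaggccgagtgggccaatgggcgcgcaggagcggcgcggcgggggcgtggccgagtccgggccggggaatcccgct
Socs1: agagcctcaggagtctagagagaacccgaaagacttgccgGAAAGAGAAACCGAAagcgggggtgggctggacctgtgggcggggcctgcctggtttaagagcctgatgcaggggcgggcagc
Igtp: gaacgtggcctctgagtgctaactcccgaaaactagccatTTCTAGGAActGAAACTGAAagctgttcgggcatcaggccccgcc
Tgtp1: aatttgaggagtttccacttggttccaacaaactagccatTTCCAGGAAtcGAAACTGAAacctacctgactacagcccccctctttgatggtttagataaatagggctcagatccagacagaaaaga
Gbp2: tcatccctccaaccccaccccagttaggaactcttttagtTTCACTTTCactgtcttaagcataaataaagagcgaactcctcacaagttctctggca
Cxcl9: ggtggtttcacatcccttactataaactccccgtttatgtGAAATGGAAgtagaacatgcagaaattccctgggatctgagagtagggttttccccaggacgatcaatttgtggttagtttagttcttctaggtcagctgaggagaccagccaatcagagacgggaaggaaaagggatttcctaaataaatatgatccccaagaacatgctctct
Cd274: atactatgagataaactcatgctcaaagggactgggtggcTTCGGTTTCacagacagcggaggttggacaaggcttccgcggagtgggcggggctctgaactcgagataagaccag
Tma16: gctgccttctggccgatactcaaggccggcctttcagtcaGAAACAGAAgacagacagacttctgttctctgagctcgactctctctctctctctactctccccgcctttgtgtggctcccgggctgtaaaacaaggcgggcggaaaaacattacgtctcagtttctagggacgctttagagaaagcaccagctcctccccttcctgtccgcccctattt
Irf1 carries a GAS core beginning at -90 from the start, the guanylate-binding and checkpoint genes Gbp2 and Cd274 carry an ISRE core on the opposite strand, and Socs1 carries ISRE cores that overlap each other. In Igtp and Tgtp1, both of the immunity-related GTPase family, a GAS core is closely followed by an ISRE core. Tma16 is shown because its rise differed between the siRNAs, as described further on. The genes shown all rose. Cores also lay upstream of named genes that did not rise. Of these, Sele and Nfkbia were not called, and Jag1, Cd59a and Sprr2a2 fell.

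Counted over all windows, the ISRE core was found in 7.40% and the GAS core in 6.97%. In the 207 windows of genes that rose at least 4-fold, the shares were 24.6% and 14.0%. In windows of genes that rose by less than 2-fold they were 10.4% and 7.07%, and in windows of genes that fell they were 6.24% and 4.96%. The NF-kB core GGANTTTCC was found in 1.42% of all windows and in 5.80% of those of genes that rose at least 4-fold. These letters describe the windows and do not show that a factor was bound.

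The interferon-inducible GTPases rose as whole families. All 11 guanylate-binding proteins (GBPs), which attack vacuoles and intracellular pathogens, rose with a median of 3.43, and all 9 immunity-related GTPases rose with a median of 2.49. Gbp2 stood at 462, 486, 315 and 344 CPM with TNF and at 4733, 5089, 3939 and 3511 CPM with TNF + IFN (3.43 ± 0.21, adjusted p = 1.56e-12). The groups lay far apart in every library. The largest rise of the family was that of Gbp11 (2.60 ± 0.85 to 139 ± 88.1 CPM, 5.74 ± 0.54), followed by Gbp10 (24.3 ± 9.22 to 616 ± 186 CPM, 4.66 ± 0.33). The smallest was that of Gbp3 (1.39 ± 0.18). Among the immunity-related GTPases, Igtp rose from 101 ± 38.5 to 943 ± 178 CPM (3.23 ± 0.30) and Tgtp1 from 233 ± 128 to 2043 ± 554 CPM (3.13 ± 0.48). Iigp1 (2.49 ± 0.37) and Irgm1 (1.78 ± 0.21) rose less. Gbp2, Gbp8, Tgtp1 and Tgtp2 have close paralogs that can share reads, so the split between family members is uncertain.

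All 3 CXCR3 ligands, the chemokines that draw in activated T cells, rose. Cxcl9 stood at 32.2, 31.7, 7.43 and 8.02 CPM with TNF and at 8457, 8131, 4045 and 3888 CPM with TNF + IFN, 309-fold between the means (8.27 ± 0.67, adjusted p = 2.65e-10). Replicates 1 and 2 held the higher levels in both groups, and the groups did not overlap. Cxcl10 started higher, at 363, 339, 241 and 252 CPM, and reached 1880, 2054, 1643 and 1840 CPM (2.63 ± 0.29, adjusted p = 7.75e-08). Cxcl11 rose from 14.9 ± 4.57 to 306 ± 128 CPM (4.36 ± 0.54). Of the other 22 chemokines and cytokines tested, 7 rose and 2 fell (31.8% and 9.09%, against 10.9% and 6.59% of all genes tested, median 0.34). Ccl8 (3.92 ± 1.79 to 69.9 ± 25.3 CPM, 4.15 ± 0.56) and Ccl5 (201 ± 89.1 to 987 ± 248 CPM, 2.30 ± 0.35), which attract monocytes and T cells, rose the most. Ccl20, a ligand of CCR6, fell from 56.2, 58.0, 26.6 and 19.7 CPM to 12.5, 12.5, 10.6 and 8.99 CPM (-1.85 ± 0.38, adjusted p = 7.16e-04). The neutrophil attractant Cxcl5 fell from 423 ± 191 to 165 ± 35.3 CPM (-1.36 ± 0.39, adjusted p = 0.0135), and it was not called without si-dnmt + TNF + IFN replicate 1 (-1.25) or si-dnmt + TNF replicate 3 (-1.11). Ccl2 (0.53 ± 0.30), Cxcl1 (0.15 ± 0.41), Csf1 (0.20 ± 0.13) and Il6 (1.12 ± 0.72) did not pass the test.

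**Figure D2:**
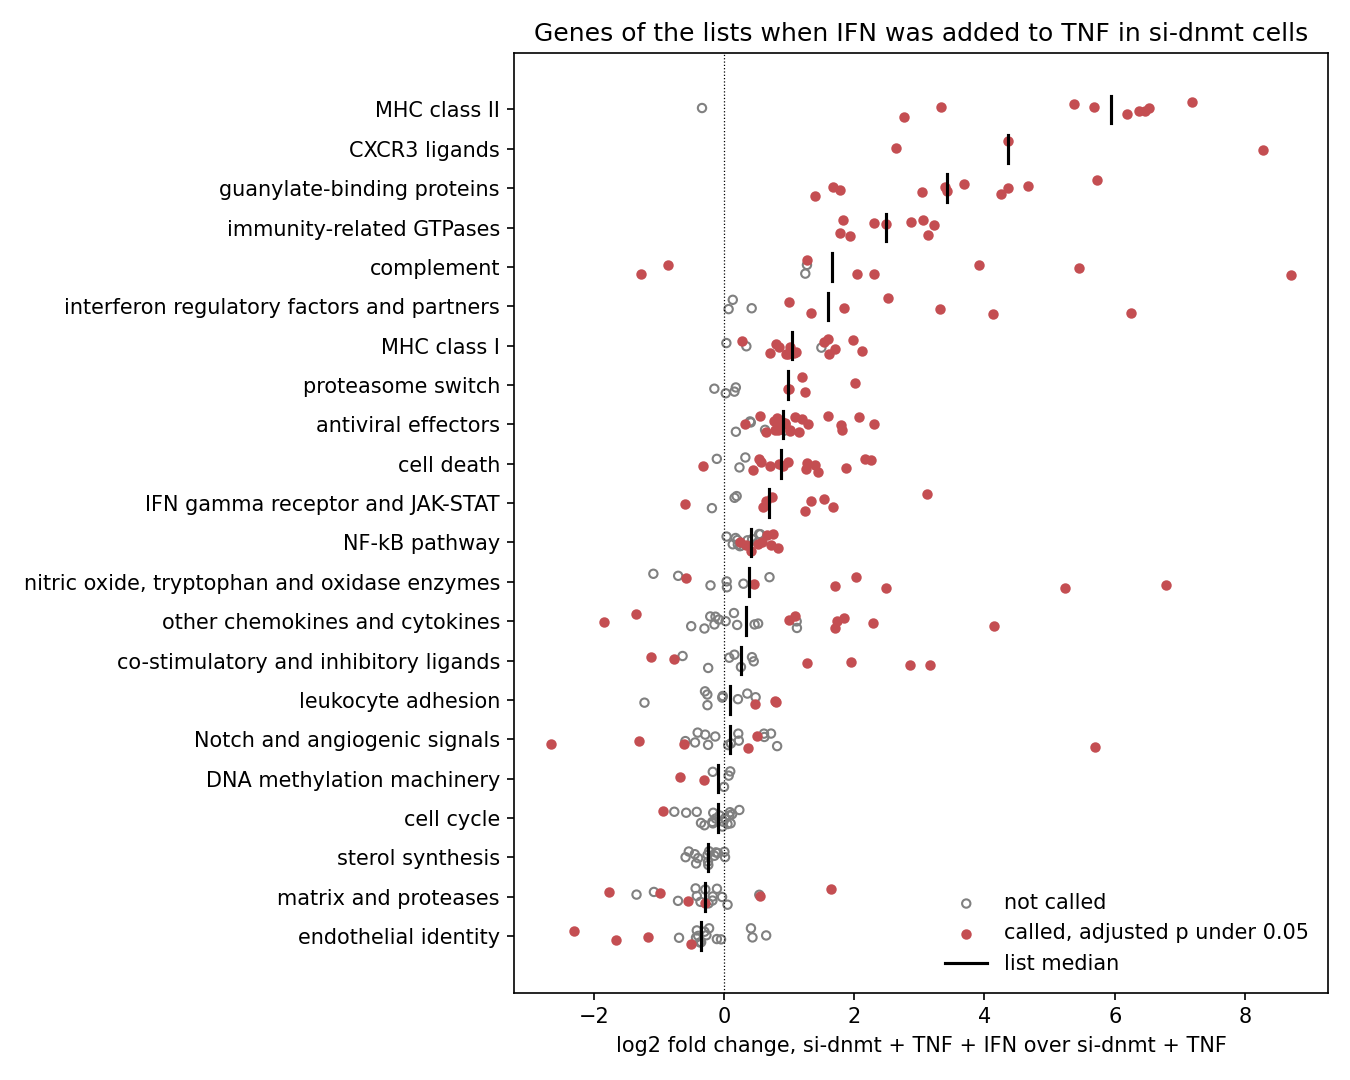
The log2 fold change of each tested member of the 22 gene lists when IFN was added to TNF in si-dnmt cells, with the members called drawn apart from the others and a mark at each list's median. The MHC class II list has its median at 5.94 and the endothelial identity list at -0.36, against -0.01 for all tested genes.

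Transcripts of MHC class II genes, whose products present peptides to CD4 T cells, rose steeply. Of 10 MHC class II genes tested, 9 rose (median 5.94). H2-Aa, the alpha chain of the I-A molecule, stood at 4.39, 2.58, 0.23 and 0.31 CPM with TNF and at 213, 254, 73.6 and 88.0 CPM with TNF + IFN (6.37 ± 0.81, adjusted p = 2.04e-06). The lowest library with IFN was far above the highest without it. Cd74, the invariant chain that guards the peptide groove, rose from 23.02, 19.0, 3.14 and 2.67 CPM to 636, 746, 299 and 316 CPM (5.38 ± 0.65, adjusted p = 4.46e-07). H2-Eb1 (0.70 ± 0.72 to 104 ± 50.6 CPM, 7.19 ± 0.73), H2-Ab1 (1.45 ± 1.46 to 136 ± 73.7 CPM, 6.52 ± 0.74) and the peptide-exchange subunit H2-DMb2 (0.06 ± 0.09 to 5.74 ± 2.96 CPM, 6.46 ± 0.74) were among the 10 largest rises of all called genes. H2-DMb2 had at most a few counts per library without IFN. The lysosomal protease Ctss, which trims the invariant chain, rose from 5.56 ± 3.03 to 37.7 ± 18.6 CPM (2.76 ± 0.43). Ifi30, a lysosomal thiol reductase also on the list, did not pass the test (-0.34 ± 0.27). Reads of H2-Aa and H2-Ab1 may be shared with overlapping gene models, so their values are uncertain.

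The MHC class I route rose by less, from higher levels. Of 18 genes of the class I list, 15 rose (median 1.04). The peptide transporter gene Tap1 rose from 228 ± 51.5 to 691 ± 89.3 CPM (1.60 ± 0.19, adjusted p = 2.46e-07). The nonclassical H2-T23 (2.12 ± 0.29) and the peptide editor Tapbpl (1.98 ± 0.15) had the largest rises. The heavy chain H2-K1 stood at 1941, 1990, 995 and 918 CPM and at 3508, 3893, 2118 and 2247 CPM with IFN (1.01 ± 0.34, adjusted p = 0.0363), so the groups did not overlap but the difference was close to that between the replicate sets. Its call was lost without replicate 1 (0.91) or 2 (0.84) of si-dnmt + TNF + IFN and without replicate 3 (0.86) or 4 (0.84) of si-dnmt + TNF. B2m, the light chain, rose by 0.70 ± 0.23 (adjusted p = 0.0310) and lost its call without the same 4 libraries, one at a time (0.67, 0.55, 0.63 and 0.59). On library totals alone neither H2-K1 (0.83) nor B2m (0.52) was called. The reads of H2-Q6 and H2-Q7 can be shared between these near-identical genes. In the proteasome, the 3 inducible catalytic subunits and both subunits of the PA28 activator rose, whereas the constitutive subunits Psmb5, Psmb6 and Psmb7 and the nuclear activator Psme3 did not pass the test (0.03 ± 0.12, 0.16 ± 0.11, 0.18 ± 0.13 and -0.15 ± 0.12). Psmb9 stood at 54.0, 54.3, 37.5 and 30.7 CPM and at 167, 171, 177 and 194 CPM with IFN (2.01 ± 0.18, adjusted p = 2.55e-09). The sets of replicates that differed without IFN were level with it.

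Ligands that steer T cells changed in both directions. Of 13 co-stimulatory and inhibitory ligands tested, 4 rose and 2 fell (30.8% and 15.4%, against 10.9% and 6.59% of all genes tested, median 0.26). Cd274, which encodes PD-L1, stood at 92.2, 98.6, 72.9 and 74.1 CPM and rose to 894, 886, 600 and 632 CPM, 8.92-fold (3.16 ± 0.26, adjusted p = 2.98e-10). Cd40 stood at 5.54, 4.83, 5.40 and 4.68 CPM and rose to 46.2, 41.3, 29.4 and 31.7 CPM (2.86 ± 0.29, adjusted p = 1.47e-08). Neither gene had overlapping groups. Tnfsf4, which encodes OX40 ligand, fell from 45.4, 55.9, 64.1 and 64.1 CPM to 30.9, 29.7, 36.7 and 38.0 CPM (-0.76 ± 0.20, adjusted p = 0.00855). Icosl, the ligand of ICOS, stood at 6.55, 6.43, 9.55 and 9.15 CPM without IFN and at 11.6, 11.8, 9.43 and 9.83 CPM with it. The replicate sets of Icosl differed, its groups overlapped and it did not pass the test (0.43 ± 0.34, adjusted p = 0.440), though in replicates 1 and 2 alone it was called (0.85). The study singled out Cd40, Icosl and Tnfsf4 under Dnmt1 silencing with both cytokines, and did not choose them on the comparison given here. Its choice set the si-dnmt + TNF + IFN group, which is also used here, against si-control with both cytokines. The choice is therefore not independent of the levels given here. The checkpoint gene Vsir fell by 1.12 ± 0.32 on the log2 scale (adjusted p = 0.0128) and was not called without si-dnmt + TNF + IFN replicate 2 (-0.99) or si-dnmt + TNF replicate 1 (-0.95), nor in replicates 3 and 4 alone, where its value was smaller (-0.44, adjusted p = 0.393 by edgeR).

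Enzymes of nitric oxide and tryptophan metabolism held some of the widest changes. Nos2, the inducible nitric oxide synthase, stood at 39.1, 42.2, 28.3 and 31.0 CPM and rose to 1652, 1841, 976 and 848 CPM, 37.8-fold (5.24 ± 0.55, adjusted p = 3.30e-08). Ido1, which starts the breakdown of tryptophan, stood at 0.69, 2.07, 0.78 and 0.98 CPM and rose to 184, 172, 68.5 and 75.5 CPM (6.78 ± 0.47, adjusted p = 1.44e-11). In both genes every library with IFN lay far above every library without it. Nos3, the constitutive endothelial synthase, fell from 122 ± 19.6 to 81.4 ± 8.10 CPM (-0.58 ± 0.12, adjusted p = 0.00102), with no overlap. Of the 14 genes tested on this list, 6 rose and 1 fell (42.9% and 7.14%, against 10.9% and 6.59% of all genes tested).

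Most complement genes tested rose, while the cell-surface regulators Cd55 and Cd59a fell. Of 10 genes tested, 6 rose and 2 fell (median 1.66). Serping1, the C1 inhibitor, stood at 0.41, 0.38, 0.37 and 0 CPM and rose to 176, 202, 63.0 and 60.6 CPM, which was the largest fitted rise of all genes (8.70 ± 0.62, adjusted p = 2.79e-11). C4b (1.501 ± 1.38 to 66.5 ± 45.3 CPM, 5.45 ± 0.80) and the protease C1s1 (32.4 ± 18.9 to 491 ± 198 CPM, 3.92 ± 0.67) rose as well. Cd55, the decay-accelerating factor, stood at 206, 203, 152 and 159 CPM and fell to 82.2, 82.7, 69.6 and 64.1 CPM (-1.27 ± 0.12, adjusted p = 8.29e-09). Cd59a, which blocks the membrane attack complex, fell from 27.5 ± 2.45 to 15.2 ± 1.91 CPM (-0.86 ± 0.14). Serping1 restrains complement as well and rose, so the regulators did not move one way. C3 and Cfb did not pass the test (1.25 ± 0.81 and 1.27 ± 0.52).

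Antiviral and cell death genes rose broadly by moderate amounts. Of 28 antiviral effectors, most of them targets of type I interferon, 23 rose and none fell (median 0.91), led by Mx1 (41.1 ± 14.3 to 204 ± 78.8 CPM, 2.31 ± 0.46) and Samhd1 (165 ± 11.9 to 691 ± 108 CPM, 2.07 ± 0.20). Of 18 cell death genes, 14 rose and 1 fell (77.8% and 5.56%, against 10.9% and 6.59% of all genes tested, median 0.88). The necroptosis executor Mlkl stood at 208, 227, 221 and 224 CPM and rose to 454, 439, 431 and 415 CPM (0.98 ± 0.10, adjusted p = 1.19e-08), with little spread within either group. Il18 (1.52 ± 0.19 to 6.80 ± 0.68 CPM, 2.16 ± 0.33) and the inflammasome adaptor Pycard (0.46 ± 0.17 to 2.23 ± 0.84 CPM, 2.25 ± 0.60) rose from low levels, and Casp1, which cleaves pro-interleukin 18, rose from 4.53 ± 1.90 to 12.3 ± 1.14 CPM (1.44 ± 0.29). Aim2, a DNA sensor, fell by 0.33 ± 0.10 on the log2 scale and was not called without si-dnmt + TNF + IFN replicate 3 (-0.28) or si-dnmt + TNF replicate 1 (-0.32), without the low-count filter, or in either replicate set alone (-0.29 and -0.36).

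Genes of the NF-kB pathway, through which TNF acts, rose in part and by small amounts. Of 21 NF-kB pathway genes, 9 rose (42.9%, against 10.9% of all genes tested) and none fell (median 0.42), and none of the 9 rose by as much as 2-fold. Nfkbie (0.83 ± 0.20), an inhibitor, and the adaptor Traf1 (0.75 ± 0.16) had the largest rises of the list. The transcript of Tnf itself stood at 1.05, 1.83, 0.60 and 0.57 CPM and rose to 3.75, 5.58, 2.20 and 2.07 CPM, 3.36-fold (1.74 ± 0.51, adjusted p = 0.0178 by edgeR). Its levels were low and its groups did not overlap, and its call was lost without si-dnmt + TNF + IFN replicate 2 (1.39) or si-dnmt + TNF replicate 3 (1.55) or 4 (1.54). Nfkbia, the feedback inhibitor that NF-kB induces, stood at 268, 266, 285 and 282 CPM and at 271, 311, 312 and 315 CPM with IFN. Its groups overlapped and it did not pass the test (0.14 ± 0.22, adjusted p = 0.747), and on library totals alone its sign turned (-0.04). Tnfaip3 rose from 236 ± 44.3 to 390 ± 40.3 CPM (0.73 ± 0.17). Of 12 leukocyte adhesion genes, 3 rose, against 10.9% of all genes tested. With the replicate number as a block, 6 were called, 5 higher and 1 lower, against 2446 and 2086 of all 15254 genes tested. Icam1 stood at 1024, 994, 902 and 954 CPM and rose to 1684, 1774, 1598 and 1636 CPM (0.79 ± 0.22, adjusted p = 0.0101). Vcam1 stood at 1024, 946, 955 and 895 CPM and rose to 1426, 1273, 1319 and 1284 CPM (0.47 ± 0.11, adjusted p = 0.00218). Neither had overlapping groups. Alcam was the third adhesion gene that rose (0.81 ± 0.24), and its call was lost without si-dnmt + TNF + IFN replicate 3 (0.69) or si-dnmt + TNF replicate 1 (0.67) or 2 (0.69), and on library totals alone (0.63). Sele, or E-selectin, stood at 152, 136, 111 and 124 CPM and at 104, 93.5, 129 and 111 CPM with IFN, so replicates 1 and 2 were lower with IFN and replicate 3 was higher. It did not pass the test (-0.25 ± 0.24, adjusted p = 0.543), but was called lower in replicates 1 and 2 alone (-0.54 ± 0.11, adjusted p = 9.14e-04 by edgeR), against 0.03 in replicates 3 and 4 alone.

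Some regulators of endothelial identity and of Notch signaling were among the genes that fell, while the Notch list had no common direction. Jag1, a Notch ligand, stood at 252, 257, 197 and 202 CPM and fell to 96.3, 102, 86.6 and 82.4 CPM, 2.47-fold lower between the means (-1.31 ± 0.14, adjusted p = 6.59e-08). Esm1, a tip-cell gene, stood at 8.10, 7.65, 8.12 and 8.84 CPM and fell to 0.49, 0.72, 2.02 and 1.88 CPM (-2.65 ± 0.31, adjusted p = 1.94e-07). Every library with IFN was below every library without it for both genes. The ephrin ligand Efnb2 fell from 68.4 ± 2.70 to 44.6 ± 5.45 CPM (-0.62 ± 0.16), while Notch1 rose from 86.1 ± 10.8 to 122 ± 11.2 CPM (0.51 ± 0.12) and Nrp2 by 0.37 ± 0.10. Gja4, which encodes connexin 37, had 0 counts in the 4 libraries without IFN and 21 counts over the 4 with it, at least 2.08-fold higher against a floor of 3 counts per library. Over 20 Notch and angiogenic genes, 3 rose and 3 fell (15.0% each, against 10.9% and 6.59% of all genes tested), with a median of 0.09. With the replicate block, 6 rose and 4 fell, against 2446 and 2086 of all 15254 genes tested.

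Of 18 endothelial identity genes, none rose and 4 fell (22.2%, against 6.59% of all genes tested, median -0.36). With the replicate number as a block, 12 were called, of which 3 rose and 9 fell, against 2446 and 2086 of all 15254 genes tested. Sox17 fell from 1.94 ± 0.45 to 0.38 ± 0.28 CPM (-2.30 ± 0.74, adjusted p = 0.0278) and Sox18 from 33.0 ± 19.4 to 10.5 ± 4.79 CPM (-1.66 ± 0.44, adjusted p = 0.00758). The libraries of Sox18 overlapped between the groups. Sox17 lost its call without any of si-dnmt + TNF + IFN replicates 1 to 3 or si-dnmt + TNF replicates 1 to 3, left out one at a time (-2.39 to -2.03). The angiopoietin receptor Tek stood at 66.1, 70.5, 33.3 and 35.7 CPM and fell to 28.4, 32.4, 15.8 and 15.5 CPM (-1.16 ± 0.33, adjusted p = 0.0122), with the lower replicate set without IFN just above the higher set with it, and was not called without si-dnmt + TNF replicate 2 (-0.97). Kdr, a VEGF receptor, fell by 0.51 ± 0.14 on the log2 scale with overlapping groups, and was not called without si-dnmt + TNF replicate 1 (-0.38) or 2 (-0.43), nor in a fit of the 8 libraries alone (-0.52). Cdh5 stood at 1329, 1412, 991 and 1121 CPM and at 1095, 1287, 914 and 847 CPM with IFN, and did not pass the test (-0.23 ± 0.23, adjusted p = 0.571), but was called lower in replicates 3 and 4 alone (-0.26, adjusted p = 0.0284). Pecam1 did not pass it either (-0.30 ± 0.17, adjusted p = 0.251), but was called with the replicate block (-0.30, adjusted p = 0.00318), in replicates 3 and 4 alone (-0.30) and on library totals alone (-0.48).

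Other groups changed in part or not at all by the test. Among 20 cell cycle genes, 1 fell (5.0%, against 6.59% of all genes tested), Cdc20 (-0.93 ± 0.33, adjusted p = 0.0470). Its call was lost without any 1 of 7 libraries, all but si-dnmt + TNF + IFN replicate 4 (-1.03 to -0.82). Among 20 matrix genes, 2 rose and 4 fell (10.0% and 20.0%, against 10.9% and 6.59% of all genes tested). With the replicate block, 2 rose and 9 fell, against 2446 and 2086 of all 15254 genes tested. Mmp13, a collagenase, rose from 2.18 ± 0.34 to 6.85 ± 1.56 CPM (1.65 ± 0.30), and Col3a1 fell from 4.34 ± 2.29 to 1.28 ± 0.28 CPM (-1.76 ± 0.36). Timp3 rose by 0.55 ± 0.16 and lost its call without si-dnmt + TNF replicate 2 (0.48) and on library totals alone (0.37). Lama4, a laminin chain of endothelial basement membrane, fell by 0.98 ± 0.28 on the log2 scale with overlapping groups. It lost its call without replicate 3 or 4 of si-dnmt + TNF + IFN or replicate 1 or 2 of si-dnmt + TNF (-0.85 to -0.79), and in a fit of the 8 libraries alone (-0.99). None of 14 sterol synthesis genes was called by edgeR (median -0.24), and 3 fell with the replicate block, against 2086 of all 15254 genes tested. Beside Dnmt1, the methyltransferases Dnmt3a (42.5 ± 4.46 to 34.3 ± 2.33 CPM, -0.31 ± 0.09) and Dnmt3b (4.58 ± 0.61 to 2.87 ± 0.61 CPM, -0.67 ± 0.18) fell. Dnmt3a lost its call without replicate 1 or 2 of either group (-0.29 to -0.26), without the low-count filter, and in a fit of the 8 libraries alone (both -0.31). In replicates 3 and 4 alone its value was -0.10 (adjusted p = 0.486 by edgeR). Dnmt3b lost its call without si-dnmt + TNF + IFN replicate 2 (-0.53) and in replicates 3 and 4 alone (-0.57).

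The 10 largest rises among called genes with a mean of at least 1 CPM and non-overlapping groups were Serping1, Cxcl9, Apol6, H2-Eb1, Pacsin1, Ido1, H2-Ab1, H2-DMb2, Fgl2 and H2-Aa. Apol6, an apolipoprotein L family gene, stood at 0.50, 0.70, 0.14 and 0.41 CPM and rose to 149, 135, 86.8 and 92.5 CPM, with the smallest adjusted p of the 10 (8.02 ± 0.28, adjusted p = 6.27e-18). Pacsin1, which encodes an adaptor of vesicle traffic, rose from 0.12 ± 0.12 to 14.9 ± 4.75 CPM (6.91 ± 0.47). Fgl2, a fibrinogen-like protein, had 3 counts over the 4 libraries without IFN and 247 with it, a ratio of 98.5 (95% exact interval 33.3 to 481, for counting error only). Of all called genes, 15 fell by at least 3 log2 units. The 10 largest falls within the same limits of level and overlap started from 8.18 ± 0.49 CPM or less with TNF. Il13ra2, the decoy receptor for interleukin 13, stood at 4.30, 2.96, 1.11 and 0.41 CPM and fell to 0.18, 0.24, 0.06 and 0 CPM (-4.19 ± 0.98, adjusted p = 0.00267). Prg2 (-3.55 ± 0.83), Fam107a (-3.23 ± 0.59), Themis (-2.97 ± 0.59), St8sia6 (-2.68 ± 0.47) and Pik3c2b (-2.58 ± 0.62) fell as well, beside Esm1. Of the other falls, Sprr2a2 (-2.69 ± 0.89) lost its call without any 1 of 6 libraries, all but si-dnmt + TNF replicates 3 and 4 (-2.83 to -2.32), and its value in replicates 3 and 4 alone was -1.39 (adjusted p = 0.160 by edgeR). Mycn (-2.69 ± 0.80) lost it without si-dnmt + TNF replicate 1 (-2.38) or 2 (-2.33). Ptgds (-2.68 ± 0.82) lost it without replicates 1, 3 or 4 of si-dnmt + TNF + IFN and without replicates 1 or 2 of si-dnmt + TNF (-2.72 to -2.33).

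Some neighboring genes rose together. Along the RefSeq gene order, 27 runs of at least 4 consecutive tested genes rose and 1 run fell. The runs that rose held 153 genes, against 1659 genes that rose in all. Whether this is more than the share of genes that rose would give was not tested. The longest run, of 12 genes on chromosome 17, went from H2-Oa through H2-DMa, H2-DMb2, H2-DMb1, Psmb9, Tap1, Psmb8, Tap2, H2-Ab1 and H2-Aa to H2-Eb1 and also held Brd2 (median 4.51). A run of 11 genes on chromosome 11 held Irgm1, Tgtp1, Tgtp2 and Ifi47 (median 1.83). On chromosome 16, a run of 8 genes rose together, Nubp1, Tvp23a, Ciita, Dexi, Clec16a, Socs1, Prm1 and Rmi2 (median 1.96). The GBPs formed runs of 6 genes on chromosome 3 (median 2.36) and 6 on chromosome 5 (median 4.31). Because the strand setting of the counting is not given, reads of a strongly raised gene and of an overlapping neighbor cannot be told apart, and the predicted genes and olfactory receptor genes within runs are uncertain for that reason.

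Grouping genes by what each cytokine did alone in si-control cells, in libraries that this comparison does not use, showed which programs IFN added to. Of 338 genes raised at least 2-fold by IFN and not by TNF there, 254 (75.2%) rose here and none fell (median 1.20). Of 283 genes raised by both cytokines there, 243 (85.9%) rose here and none fell (median 1.41). Of 484 genes raised by TNF and not by IFN there, 80 (16.5%) rose and 36 (7.44%) fell (median 0.14), nearer to the 10.9% and 6.59% of all genes. Of 695 genes lowered by TNF there, 37 (5.32%) rose and 114 (16.4%) fell (median -0.35), and of 253 lowered by IFN there, 2 rose and 92 (36.4%) fell (median -0.86). At a 4-fold limit the shares among genes lowered by TNF were 2.79% and 7.82%.

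**Figure D3:**
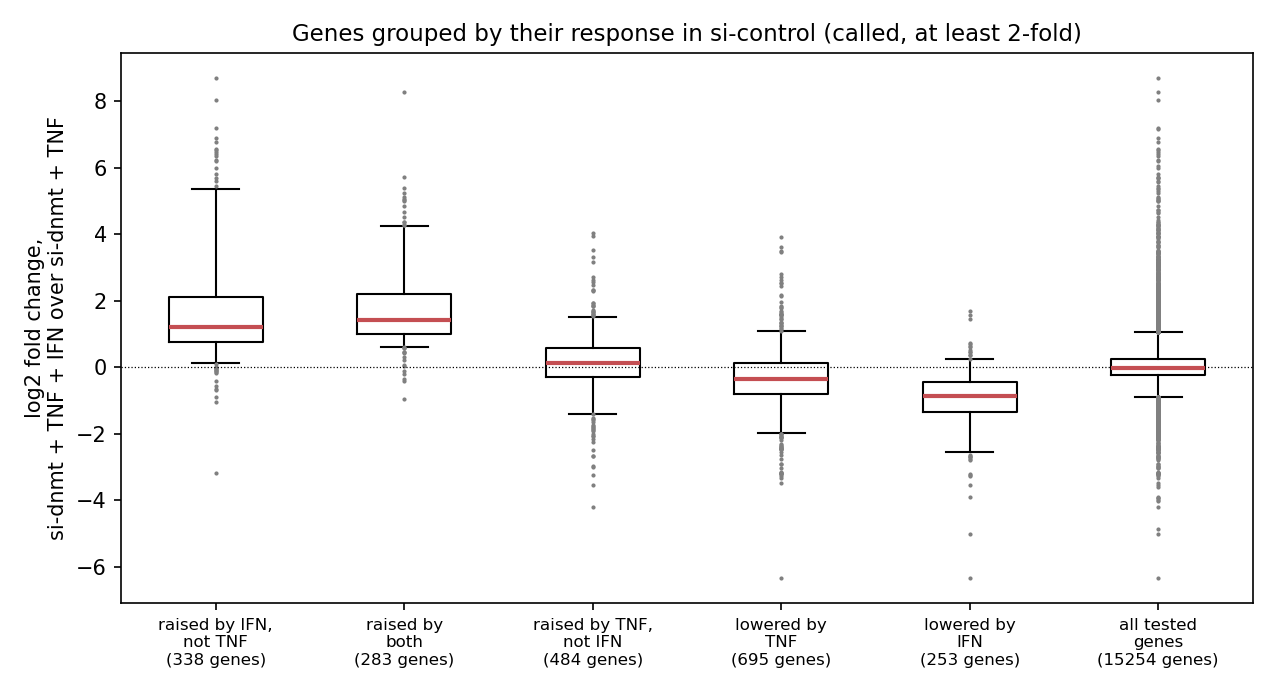
Log2 fold change on adding IFN to TNF in si-dnmt cells for genes grouped by their response to each cytokine alone in si-control cells (boxes: quartiles and median, whiskers: 5th to 95th percentile). The medians are 1.20 for genes raised by IFN alone, 1.41 for those raised by both, 0.14 for those raised by TNF alone, -0.35 and -0.86 for those lowered by TNF and by IFN, and -0.01 for all tested genes.

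The same addition of IFN to TNF in si-control cells called 3203 genes (21.0%), 1916 higher and 1287 lower. Of the 1659 genes that rose in si-dnmt cells, 1339 (80.7%) also rose in si-control, which is 69.9% of the si-control list, and none fell there. Of the 1005 that fell, 662 (65.9%, and 51.4% of the si-control list) also fell there and 2 rose. The test of the difference between the siRNAs called 5 genes (0.0328% of those tested), while 593 had an unadjusted p under 0.05. Tma16, which encodes a factor linked to translation machinery, was the gene with the larger rise in si-dnmt. It stood at 18.3, 18.4, 21.4 and 20.4 CPM with TNF and at 81.0, 81.9, 122 and 118 CPM with TNF + IFN (2.36 ± 0.16), against a mean of 21.3 ± 2.46 and 36.9 ± 4.01 CPM in si-control (0.79 ± 0.15). The difference was 1.57 ± 0.21 (adjusted p = 8.60e-04), with similar levels before IFN and no overlap between the siRNAs after it.

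The other 4 called differences were lower in si-dnmt. Batf2 changed by 4.13 ± 0.24 in si-dnmt and 6.20 ± 0.27 in si-control (difference -2.07 ± 0.33, adjusted p = 0.00548). Its levels with TNF + IFN were alike, 137 ± 22.04 and 120 ± 33.4 CPM, and its level with TNF alone was higher in si-dnmt, 7.83 ± 2.35 against 1.63 ± 0.23 CPM. Gbp8 also started higher in si-dnmt, 9.38 ± 2.36 against 4.78 ± 1.17 CPM, and ended lower, 193 ± 60.3 against 296 ± 32.4 CPM (difference -1.59 ± 0.30, adjusted p = 0.0303). Mxi1, a repressor of MYC targets, fell in si-dnmt from 8.74 ± 1.20 to 5.46 ± 0.96 CPM (-0.68 ± 0.18, not called in replicates 1 and 2 alone at -0.50) and rose in si-control from 12.1 ± 0.40 to 19.4 ± 6.12 CPM (0.68 ± 0.17), a difference of -1.36 ± 0.25 (adjusted p = 0.0303). Gys1, the muscle-type glycogen synthase, rose in si-control from 53.0 ± 3.96 to 121 ± 23.5 CPM (1.20 ± 0.12) and stood at 50.1 ± 4.71 and 61.8 ± 12.99 CPM in si-dnmt (0.30 ± 0.12, adjusted p = 0.0801, but called with the block, in replicates 1 and 2 alone at 0.50 and without si-dnmt + TNF + IFN replicate 4 at 0.42), a difference of -0.90 ± 0.17 (adjusted p = 0.0303). In a fit of the 16 libraries of these groups alone, Tma16 alone was called, and Batf2, Gbp8, Mxi1 and Gys1 kept their direction (-2.06, -1.58, -1.35 and -0.89).

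**Figure D4:**
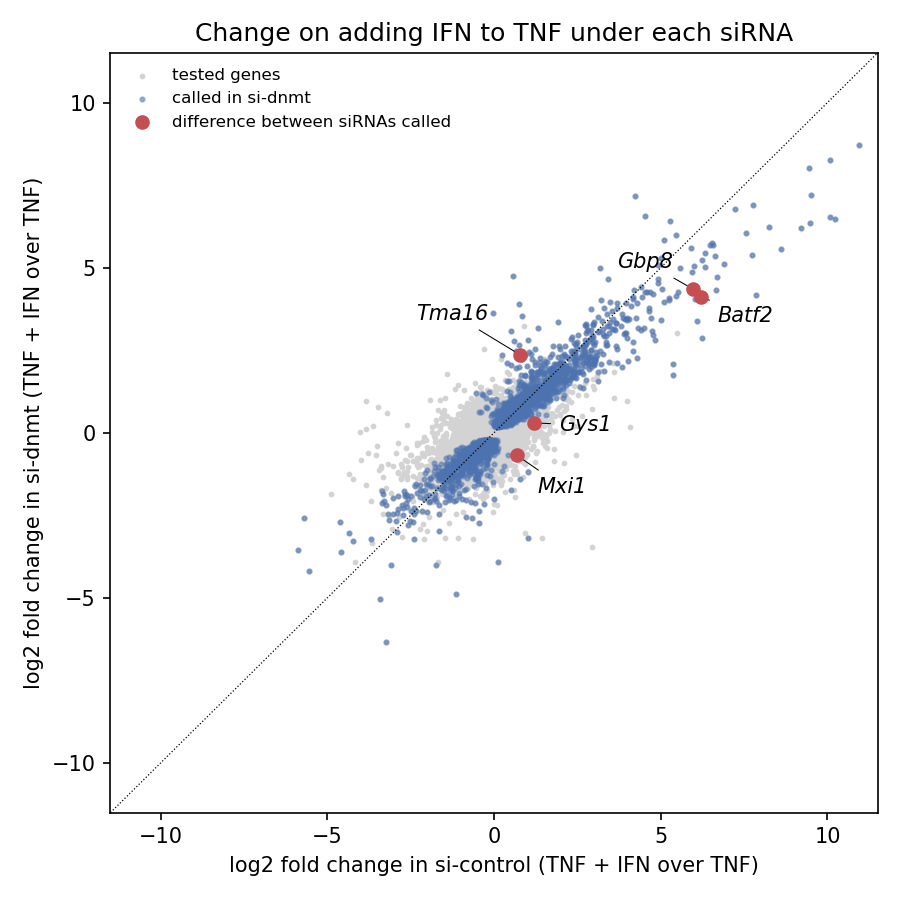
Log2 fold change on adding IFN to TNF in si-dnmt cells (vertical) against that in si-control cells (horizontal) for each tested gene, with the genes called in si-dnmt and the 5 genes whose difference between the siRNAs was called marked. Tma16 lies above the dotted line of equal change, and Batf2, Gbp8, Mxi1 and Gys1 lie below it.

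With the replicate number as a block, 41 genes differed between the siRNAs, and MHC class II genes were among them. H2-Ab1 (-3.40 ± 0.48), H2-Aa (-2.99 ± 0.46), H2-DMb1 (-2.91 ± 0.50) and Cd74 (-2.19 ± 0.30) had smaller fold changes in si-dnmt, as did Ciita (-1.96 ± 0.37) and Cxcl9 (-1.73 ± 0.34), and the 10 class II genes had a median difference of -2.18. The levels behind these differences were not alike for each gene. Ciita reached 194 ± 89.3 CPM in si-dnmt and 194 ± 92.8 CPM in si-control with TNF + IFN, and stood at 2.53 ± 2.30 and 0.63 ± 0.59 CPM with TNF alone. Cd74 reached 499 ± 226 and 539 ± 250 CPM with both cytokines and stood at 11.96 ± 10.6 and 2.51 ± 1.46 CPM with TNF. Cxcl9 was higher in si-dnmt in both states, 6131 ± 2503 against 3818 ± 738 CPM with both cytokines and 19.8 ± 13.99 against 3.52 ± 0.61 CPM with TNF. In the fit without the block none of these 6 differences was called. H2-Aa and H2-Ab1 had under 1 CPM in si-control with TNF (0.26 ± 0.20 and 0.17 ± 0.13), so the size of their si-control fold change rests on few counts. With both cytokines their means were lower in si-dnmt than in si-control, with overlapping libraries. H2-Aa reached 157 ± 90.0 against 188.6 ± 121 CPM, and H2-Ab1 135.5 ± 73.7 against 188.5 ± 123.7 CPM.

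The second comparison, IFN without TNF in si-dnmt cells, called 1375 genes (9.01%), 1016 higher and 359 lower. Of the genes that rose with IFN on top of TNF, 872 (52.6%, and 85.8% of the list without TNF) also rose with IFN alone, and 3 fell there. Of the 1005 that fell on top of TNF, 221 (21.99%, and 61.6% of the list without TNF) also fell with IFN alone, and 1 rose there. The test of whether the IFN change differed with and without TNF called 54 genes (0.354%), 27 with a larger and 27 with a smaller value under TNF, and 277 with the replicate block. Interferon effectors were among the smaller values. Irf1 changed by 2.52 ± 0.15 under TNF and by 3.65 ± 0.16 without it (difference -1.13 ± 0.20, adjusted p = 0.00366), and its level with IFN was higher under TNF, 899 ± 85.6 against 638 ± 74.1 CPM. Psmb9 (-1.73 ± 0.25), Gbp2 (-1.59 ± 0.28), Gbp8 (-1.66 ± 0.31), Gbp10 (-2.50 ± 0.42), Batf2 (-2.36 ± 0.34), Gm12250 (-3.16 ± 0.40), Ms4a4d (-2.54 ± 0.43) and Ctss (-3.31 ± 0.68) likewise had smaller fold changes under TNF. Their mean levels with both cytokines were not below those with IFN alone. Psmb9 reached 177 against 122 CPM, Gbp2 4318 against 4142, Gbp8 193 against 110 and Gbp10 616 against 549. Batf2 reached 137 against 86.5 CPM, Ms4a4d 42.0 against 21.6 and Ctss 37.7 against 23.2. Gm12250, an immunity-related GTPase, reached 449 ± 89.4 CPM with both cytokines and 437 ± 106 CPM with IFN alone, and stood at 61.4 ± 20.3 CPM with TNF and 6.70 ± 1.54 CPM with neither. Cd74 had 6 counts over the 4 si-dnmt libraries without cytokine and 24591 with IFN alone, a ratio of 4337 (95% exact interval 1992 to 11820, for counting error only), so its fitted difference of -6.66 ± 1.26 depends on those few counts. With the block, smaller fold changes under TNF were called for 8 of the 11 GBPs, 5 of the 9 immunity-related GTPases and 5 of the 10 class II genes. They were also called for 10 of the 18 class I genes and 5 of the 9 proteasome genes, against 158 of all 15254 genes tested. By sign alone, called or not, the value was lower under TNF for 11, 9, 9, 15 and 9 genes of these lists, in the same order. This is a statement on fold changes and not on the levels reached.

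Cd40 was among the genes with a larger value under TNF. It stood at 1.78 ± 0.52 CPM with no cytokine, 3.21 ± 0.23 with IFN, 5.11 ± 0.42 with TNF and 37.2 ± 7.93 with both. Its IFN change was 2.86 ± 0.29 under TNF and 0.85 ± 0.30 without it (difference 2.02 ± 0.40, adjusted p = 0.0143). Tma16 stood at 9.09 ± 1.80, 10.1 ± 1.12, 19.6 ± 1.53 and 101 ± 22.1 CPM in the same order, a difference of 2.21 ± 0.22 (adjusted p = 1.14e-06). Mxd1, a MAX partner that opposes MYC, stood at 29.8 ± 16.9, 34.5 ± 13.2, 25.4 ± 3.44 and 156 ± 5.59 CPM (difference 2.41 ± 0.50, adjusted p = 0.0193). For all 3 genes the libraries with both cytokines were above those of every other state. Sema4d, a semaphorin, rose under TNF (1.69 ± 0.27) and fell without it (-1.19 ± 0.33), and the exchange factor gene Mcf2l did likewise (1.56 ± 0.23 and -1.22 ± 0.22). Ly6i, whose reads can be shared with other Ly6 genes, had a difference of 2.94 ± 0.68 (adjusted p = 0.0466), which was not called in replicates 3 and 4 alone (1.61), on library totals (2.83), without the low-count filter (2.94) or in a fit of the 16 libraries alone (2.90). Among genes that fell, Cd55 fell by 1.27 ± 0.12 under TNF and by 0.39 ± 0.12 without it, both on the log2 scale (difference -0.88 ± 0.17, adjusted p = 0.0106).

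**Figure D5:**
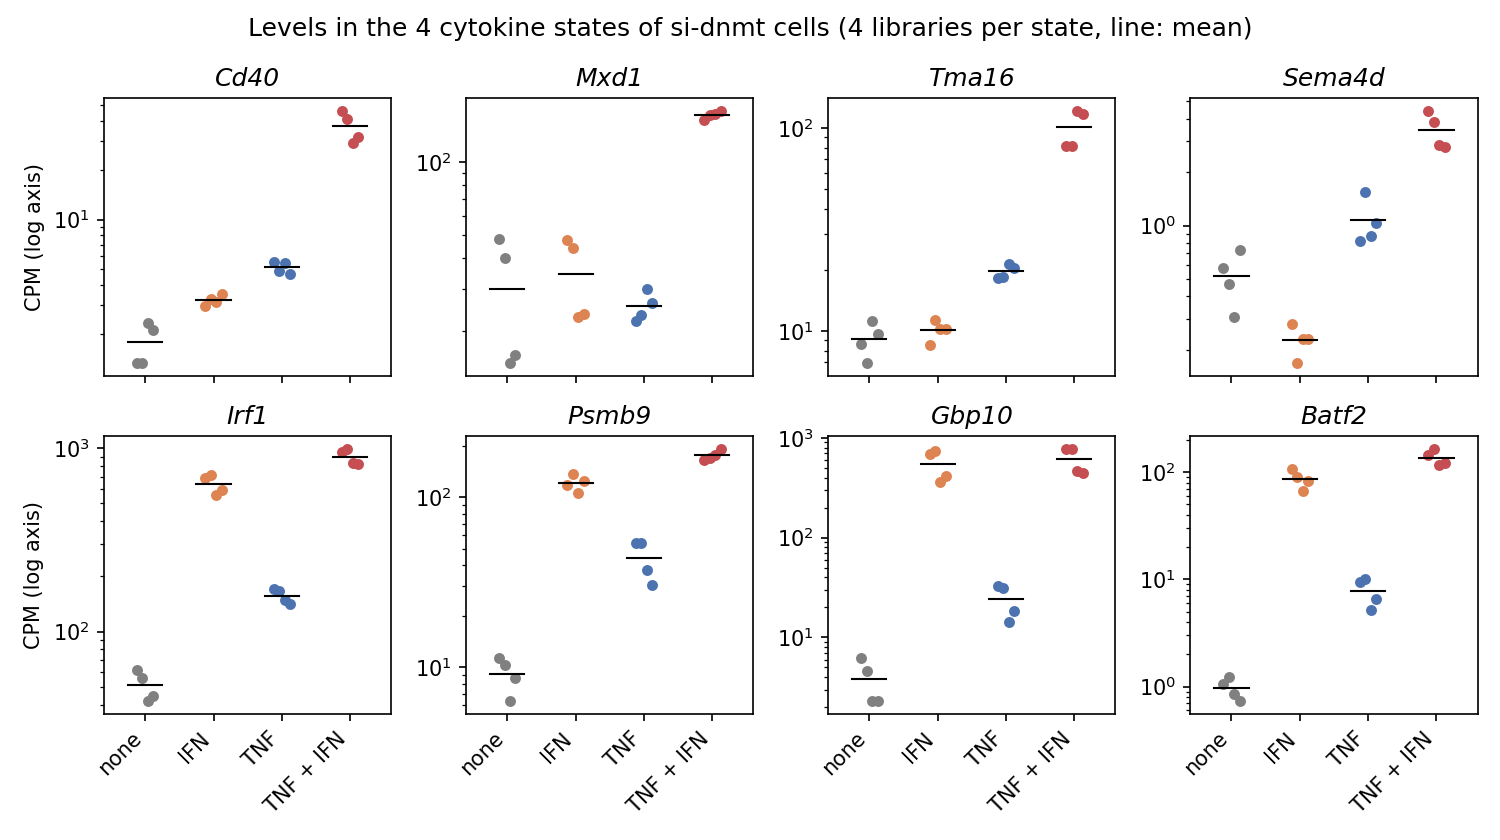
CPM on a log axis of 8 genes in the 4 cytokine states of si-dnmt cells, with a point per library and a line at the mean of 4. All 8 genes, Cd40, Mxd1, Tma16, Sema4d, Irf1, Psmb9, Gbp10 and Batf2, have their highest mean with TNF + IFN. Irf1, Psmb9, Gbp10 and Batf2 are already raised by IFN without TNF.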

How the data were processed

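RNA-seq was performed on 32 libraries in 8 groups of 4, of which 8 form the comparison reported and 24 enter the shared estimate of spread. The authors trimmed reads with cutadapt 4.9, checked them with FastQC 0.12.1 and MultiQC 1.27.1, and counted them per gene with featureCounts, and their processing notes also name DESeq2. The deposited tables hold raw counts per gene and library, with no normalization by the authors. For the aligner, genome build, annotation and strand setting nothing was given in the sources used here, and reads of overlapping or antisense genes and of close paralogs (H2-Aa, H2-Ab1, Gbp2, Gbp8, Tgtp1, Tgtp2, Ly6i, Sprr2a2, genes with Gm names) cannot be told apart with certainty. The merged table by symbol equalled the per-library tables, with 0 values differing, no column without a sample and 0 unnamed features.

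Genes were filtered with filterByExpr at a minimum count of 10, scaled by TMM and fitted with edgeR 4.0.16 in R 4.3.3 with 8 group means over all 32 libraries. Contrasts were tested with edgeR's quasi-likelihood F test (two-sided), and p-values were adjusted by Benjamini-Hochberg over 15254 genes, and the script was checked on simulated data. A group with 0 counts was given a floor of 3 counts per library, and ratios on 3 counts or fewer per library carry 95% exact intervals (scipy 1.17.1). Intervals and floors cover counting error only. At these depths a count of 0 allows a mean of up to 0.143 CPM in si-dnmt + TNF.

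Same-numbered libraries of both groups deviated together from their group means (correlations across genes of 0.43, 0.47, 0.48 and 0.38), so a fit with the replicate number as a block was run as an alternative and is given where it changes a call or a count. Replicate 1 of a group correlated about as well with replicate 2 of the other group, and likewise 3 with 4, so the numbers mark sets at least as much as pairs. DESeq2 1.42.0, RLE factors, library totals, no filter, the libraries of a contrast alone, the replicate sets apart, the merged table and leaving out each library were the other alternatives.

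Gene lists, members and named genes were chosen with earlier results of these data known, and no list was tested as a set. The naming rule took a fixed list of genes, the 10 largest rises and falls among called genes with at least 1 CPM and non-overlapping groups, the 5 largest differences each way in both difference contrasts, and the 2 largest rises and falls of each list. Genes named beyond it were chosen after their values were seen. Promoter windows and gene order are from RefSeq on GRCm38.p6, matched by symbol, and 73 of the 103 named genes had a window. A few genes of the lists are not reported here and stay out of the list counts. For list medians, counts of called members are to be read beside the share called among all genes.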

Additional observations from a re-analysis of the deposited data

Results flagged for a closer look

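Among 204 groups of 4 libraries examined for the named genes, 7 held a library far from the other 3 relative to the group's range. Chance flags about 1 in 20 groups. With TNF + IFN, replicate 1 was the lowest for Nfkbia (271.3 CPM) and the highest for Casp1 (14.03 CPM), replicate 4 was the lowest for Mcf2l (1.679 CPM), and replicate 3 was the lowest for Il18 (5.784 CPM) and Aim2 (10.93 CPM). With TNF, replicate 4 was the lowest for Serping1 (0 CPM) and the highest for Mxi1 (10.54 CPM).

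The change on adding IFN to TNF differed between si-dnmt and si-control, by a test of the difference on the log2 scale, for Tma16 (1.566), Batf2 (-2.074), Gbp8 (-1.591), Mxi1 (-1.36) and Gys1 (-0.895).

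In si-dnmt cells the change with IFN differed with and without TNF, by the same kind of test, with a larger value under TNF for Ly6i (2.941), Sema4d (2.881), Mcf2l (2.782), Mxd1 (2.406), Tma16 (2.211) and Cd40 (2.015). It had a smaller value under TNF for Cd74 (-6.66, with 6 counts over the 4 libraries without cytokine), Ctss (-3.313), Gm12250 (-3.157), Ms4a4d (-2.537), Gbp10 (-2.501), Batf2 (-2.355), Psmb9 (-1.728), Gbp8 (-1.657), Gbp2 (-1.592), Irf1 (-1.13) and Cd55 (-0.88).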

How the results depend on the processing

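No gene called in the comparison was called in the other direction under any alternative run. Against 2664 genes, 4532 were called with the replicate number as a block, 4656 in replicates 1 and 2 alone and 892 at a change of 1 or more log2 units either way, while leaving out each library gave 2069 to 2555. For the difference between the siRNAs (5 genes), DESeq2 called 21, the replicate block 41, the libraries of the contrast alone 1, replicates 1 and 2 alone 257 and replicates 3 and 4 alone 105. For the difference with and without TNF (54 genes), the same alternatives called 96, 277, 122, 737 and 318. The counts from a replicate set alone rest on the smaller spread within that set. Signs reversed for Dnmt1 without si-dnmt + TNF + IFN replicate 3 (0.024) or 4 (0.032) and without si-dnmt + TNF replicate 1 (0.009), within a range of -0.521 to 0.032 over the libraries left out, for Sele in replicates 3 and 4 alone (0.032) and for Nfkbia on library totals (-0.04), none of them called. Of 119 results for named genes, 88 kept direction and call under each alternative run for them, where leaving out a library was run for the 103 results on IFN added to TNF and not for the differences between conditions, and the cause of the other changes was not tested. Among these 119, the replicate block changed the call of Pecam1 and Gys1 (0.291, now called), and the differences called only with the block are counted above and not among the 119. Depth limits fold changes from near 0, such as that of Fgl2, which had 3 counts over the 4 libraries without IFN.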

Other observations

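The replicate sets were also fitted apart. Of 2643 genes called with all 8 libraries and tested in both sets, 2643 had the same sign in both and 1992 were called the same way in both. These genes were called on the same libraries that form the sets, so the choice itself favored a shared sign, and this is not a replication. Of 2712 genes called in both sets, 2700 had the same direction and 12 the opposite one. These 12 were chosen after their values were seen: Cox11, Gm13341, Atp5k, Dcn, Phb, Rgs16, Gm6136 and Rpl7l1 were lower with IFN in replicates 1 and 2 and higher in replicates 3 and 4, and Ahi1, Ermard, Zfp994 and Ptgs2 were the reverse. Ptgs2, the inducible cyclooxygenase, changed by 0.33 in replicates 1 and 2 and by -0.29 in replicates 3 and 4.

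Prdm1, which encodes the transcriptional repressor BLIMP1, was outside the naming rule. It rose from 0.21 to 3.26 CPM in si-dnmt when IFN was added to TNF (3.90) and stood at 0.93 and 1.56 CPM in si-control (0.76, adjusted p = 0.255). The difference between the siRNAs was 3.12 ± 0.58 with the replicate block (adjusted p = 0.00904) and was not called without it (adjusted p = 0.149 by edgeR).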
